A study of Mus musculus with 50 samples.

Results

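The genes described here encode proteins of the extracellular matrix. They were chosen by symbol from the platforms' annotation: collagen chains, laminin chains, elastin with the fibrillins and fibulins, lysyl oxidases, adhesive and matricellular glycoproteins, the CCN proteins, 3 small leucine-rich proteoglycans and the tissue inhibitors of metalloproteinases (Timps). This rule found 82 genes of 13509 named genes on the smaller array platform and 81 of 13409 on the larger one, on which Fn1 (fibronectin) had no named probe. No measured value entered this rule, but genes and lists were chosen with earlier results of these data known. By role the 82 genes were 11 chains of fibrillar collagens, 8 of basement membrane collagens, 21 of other collagens, 10 laminin chains, 11 proteins of elastic fibres and crosslinking, 9 adhesive and matricellular glycoproteins, 5 CCN proteins, 3 proteoglycans (Bgn, Dcn and Lum) and 4 Timps.

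The series measured RNA of mouse airways on 50 spotted arrays, 5 for each of 10 groups. The second channel held the sample and the first a reference, and the values are log2 ratios of the pair. One tissue was tracheal perfusate, the RNA flushed from the trachea, and the other was the whole lung. By its title the series asked how IL-13, a cytokine of allergic inflammation, acts directly on epithelial cells of the airway.

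Each tissue had the same 5 groups. In 3 of them the animals carried IL-13, and these differed in Stat6, the transcription factor through which IL-13 signals: Stat6+/- animals kept a working allele, Stat6-/- animals had none, and a further Stat6-/- group bore the mark Epi+. In mouse lines of that name a transgene restores Stat6 in airway epithelium, but the labels give only the mark. The remaining groups were OVA (ovalbumin, an allergen) and PBS (saline), whose Stat6 genotype the labels do not state. No group without IL-13 is labelled by Stat6 genotype, and age and sex are not stated.

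The extracellular matrix is the scaffold of secreted proteins around cells. Fibrillar collagens and elastic fibres carry load in the wall of the airway and lung, while laminins and type IV collagen form the basement membrane on which epithelium rests. Matricellular proteins such as thrombospondins, tenascin and the CCN family regulate adhesion and growth factor signalling, Timps restrain the proteases that degrade matrix, and TGF-beta is the best known inducer of matrix genes. Remodelling of the airway matrix is a feature of asthma.

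Arrays held 15693 to 18655 spots with a value, and no value of a matrix gene lay at the lowest ratio of the files, 0.001. Each array was centred on its median. Differences between groups of 5 arrays are on the log2 scale and carry the standard error that limma estimated, and a gene is called at an adjusted p under 0.05 (Benjamini-Hochberg over all genes and unnamed probes tested). The ratio was read as sample over reference, which is likely but not stated: Il13 was higher by 2.72 ± 0.21 in perfusate of Stat6-/- IL-13 animals than in PBS perfusate. Il13 also differed between the IL-13 groups, lower by 0.99 ± 0.21 in Stat6+/- than in Stat6-/- perfusate (limma adjusted p = 0.0118). The Stat6 probe did not pass the test (-0.10 ± 0.14, limma adjusted p = 0.848), so it gives no check of the genotype labels. Y-linked Eif2s3y was low on perfusate Stat6-/- arrays 10, 11 and 12 (-1.46, -0.97 and -0.95) and on whole lung Stat6-/- arrays 1 and 2 (-3.34 and -3.16), so sex may differ between arrays compared. Calls of matrix genes that are lost without these 5 arrays are named with their values. Of the Stat6-/- arrays this leaves 13 and 14 in perfusate and 4, 5 and 6 in lung. A call lost there cannot be told apart from the loss of arrays. Eif2s3y was also low on perfusate Epi+ array 16 (-1.07), whole lung Stat6-/- array 5 (-1.21) and whole lung OVA array 5 (-2.75), which were left out only one at a time. Y-linked Uty was low on lung Stat6-/- arrays 1 and 2 (-3.66 and -4.35) but not on array 5 (0.38). In perfusate Uty read -2.10, -0.95 and -0.93 on Stat6-/- arrays 10, 11 and 12 and -0.09 and -0.73 on arrays 13 and 14. Xist, an RNA of female cells, read -0.09, 0.91 and -0.33 on perfusate Stat6-/- arrays 10, 11 and 12. Arrays 13 and 14 read -1.36 and -2.58, and the other perfusate groups, Epi+ array 16 included, ran from -5.70 to -1.50. In lung Xist read 7.35, 0.89 and -3.15 on Stat6-/- arrays 1, 4 and 5, and arrays 2 and 6 had no value. It read 2.94 on lung OVA array 5 and 2.07 on lung Stat6+/- array 6. The sex of the arrays was not tested. A ratio to a reference does not rank genes by level, so the tissue labels could not be checked against marker levels. References differed between tissues and platforms, so levels are compared within a tissue and platform only. In bulk RNA, fewer cells of a type and less RNA per cell cannot be told apart.

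In tracheal perfusate, the microfibril collagen Col6a4, the membrane collagen Col13a1 and the laminin chain Lamb1 were higher in IL-13 Stat6+/- than in IL-13 Stat6-/- animals. Ccn2 (connective tissue growth factor), the protease inhibitor Timp3 and the laminin chain Lamc3 were lower. These were 6 of 79 matrix genes tested, 3 in each direction, or 7.59%, beside 3.07% of all 15831 genes and probes. The median difference was -0.05 over the matrix genes and -0.02 over all. Of the 79 genes, 33 had a positive difference, called or not. By direction, 1.09% of all features were called higher and 1.98% lower.

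Col6a4, a chain of the beaded microfibrils of collagen VI, stood at 1.71, 1.62, 0.96, 1.03 and 0.41 on the Stat6+/- arrays, in the order of reference preparations 1.1 to 1.5. The Stat6-/- arrays gave 0.86, 0.05, -0.15, -0.55 and -0.82 in the same order. The groups overlapped only through the highest Stat6-/- array, hybridised against preparation 1.1, and within each of the 5 preparations the Stat6+/- array was the higher by 0.86 to 1.58. The difference was 1.27 ± 0.19, or 2.41-fold (limma adjusted p = 0.000612). It passed in 8 of 8 alternative analyses and with each of the 10 arrays left out, and without the arrays of low Y-linked signal it was 1.47.

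Col13a1 encodes a collagen that spans the cell membrane at sites of adhesion. Its Stat6+/- arrays read 1.67, 1.60, 1.49, 1.87 and 0.95, and its Stat6-/- arrays 0.97, 0.80, 0.52, -0.06 and 0.14. The lowest Stat6+/- array fell just under the highest Stat6-/- array, and within preparations the Stat6+/- array was higher in 5 of 5. The difference was 1.05 ± 0.18, or 2.06-fold (limma adjusted p = 0.00219). The 2 spots of this gene, from the same accession, gave 1.09 and 1.01 and correlated at 0.923 over 40 arrays. Without the arrays of low Y-linked signal the difference was 0.99 and missed the threshold (limma adjusted p = 0.0841).

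Both laminin chains that passed moved in opposite directions. Lamb1, the beta-1 chain of many basement membrane laminins, read -1.61, -1.23, -0.72, -0.50 and 0.25 on Stat6+/- arrays and -2.24, -1.43, -2.98, -1.17 and -1.88 on Stat6-/- arrays. Most Stat6+/- arrays lay above the Stat6-/- arrays, the groups overlapped, and the difference was 1.18 ± 0.30 (limma adjusted p = 0.0379). Lamc3, a gamma chain of restricted distribution, read 0.02, 0.03, -0.07, -0.24 and -0.55 on Stat6+/- arrays and 0.96, 0.13, 0.62, 0.29 and 0.30 on Stat6-/- arrays. Its groups did not overlap, and the difference was -0.62 ± 0.16 (limma adjusted p = 0.0399). Each call held in 3 of 8 alternative analyses, and in 4 (Lamb1) and 3 (Lamc3) of 10 fits that left out 1 array. Both were lost without the arrays of low Y-linked signal, at 1.07 for Lamb1 (limma adjusted p = 0.187) and -0.55 for Lamc3 (limma adjusted p = 0.365). The other 8 laminin chains did not pass.

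Ccn2, a CCN protein whose gene responds to TGF-beta and to mechanical load, read -1.08, -0.55, -2.22, -2.34 and -1.51 on Stat6+/- arrays. Its Stat6-/- arrays read -0.18, 0.09, -1.28, -0.62 and 0.88. The Stat6+/- array was the lower in all 5 preparations although the groups overlapped, and the difference was -1.32 ± 0.29, 2.49-fold lower (limma adjusted p = 0.013). Without Stat6+/- array 6 it was -1.13 and missed the threshold (limma adjusted p = 0.0549). Timp3, a Timp that stays bound to the matrix, read -0.86, -0.32, -1.10, -1.75 and -1.88 on Stat6+/- arrays and 0.38, 0.61, -1.22, 0.39 and -0.37 on Stat6-/- arrays. It was lower in 4 of 5 preparations, overlapped, and differed by -1.14 ± 0.29 (limma adjusted p = 0.0325), a call that held in 4 of 8 alternative analyses and in 3 of 10 fits with 1 array left out. Without the arrays of low Y-linked signal it was -1.41 and missed the threshold (limma adjusted p = 0.0799). There, with only Stat6-/- arrays 13 and 14 kept, 2 of the 6 calls held, Col6a4 and Ccn2. The count of 6 calls fell to 3 without Stat6+/- array 7, to 2 without Stat6+/- array 6, and to 3 without Stat6-/- array 14.

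Markers of epithelial cell types moved between the same groups. Of 6 secretory markers, the mucins Muc5ac (3.38 ± 0.29) and Muc5b (0.68 ± 0.17) were higher in Stat6+/- perfusate, while the other 4 had negative differences that did not pass and the median of the list was -0.22. The mean of the secretory markers ran from 0.575 to 0.79 on Stat6+/- arrays and from -0.032 to 0.55 on Stat6-/- arrays. Also higher was Ccdc39 (0.77 ± 0.20), the sole call of 3 ciliated markers, all 3 of which had an unadjusted p under 0.05. The mean of the ciliated markers ran from 0.185 to 0.767 on Stat6+/- arrays and from -0.55 to 0.078 on Stat6-/- arrays. Of 5 alveolar markers, the surfactant protein gene Sftpa1 was lower (-2.55 ± 0.25), and of 9 fibroblast markers Pi16 was (-0.55 ± 0.13). The mean of the fibroblast markers ran from -0.60 to 0.07 on Stat6+/- arrays and from -0.31 to 0.09 on Stat6-/- arrays. limma called 0 of 7 smooth muscle and 0 of 6 basal epithelial markers, each list with 1 at an unadjusted p under 0.05. The part of these cell types in the matrix result was not tested.

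**Figure D1:**
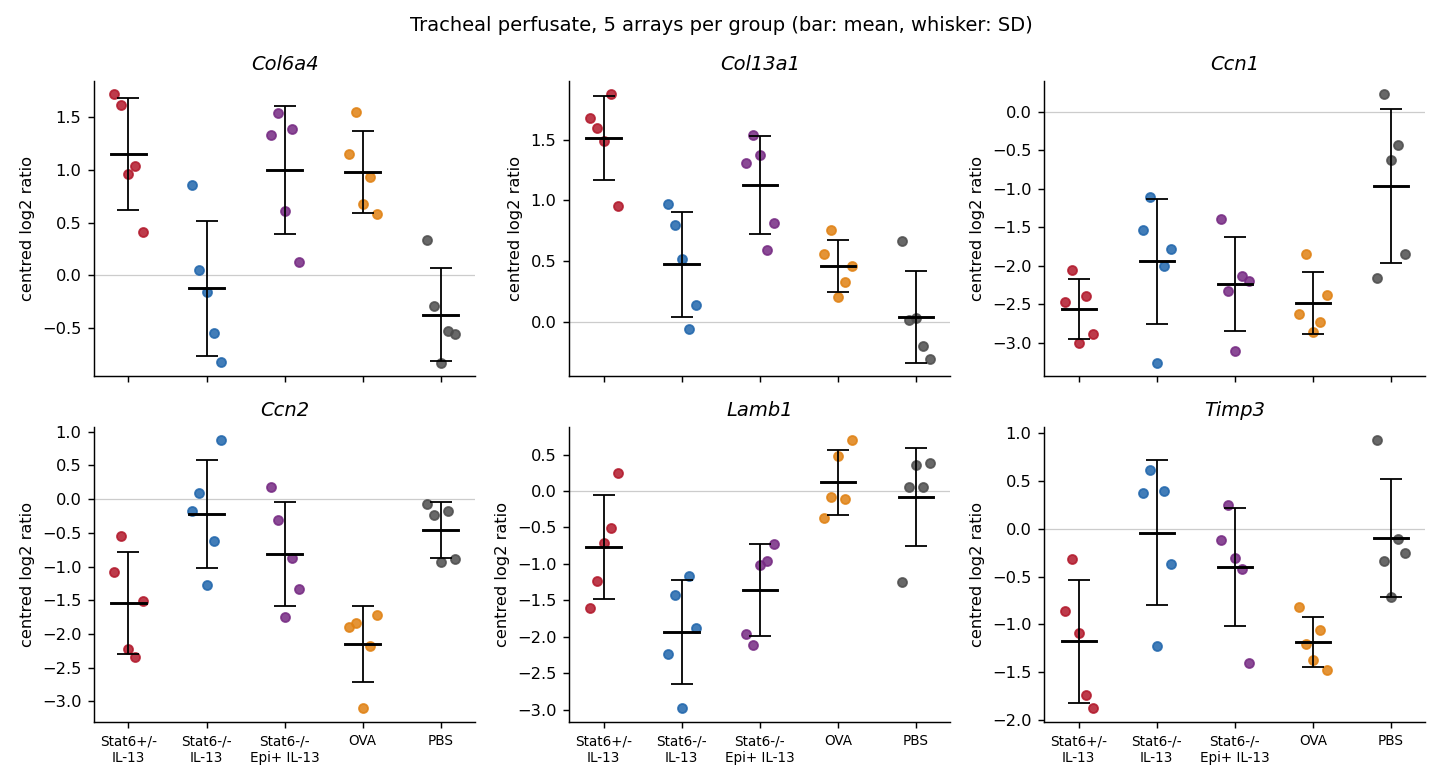
Centred log2 ratio to the reference (vertical axis) of 6 matrix genes in the 5 perfusate groups; each point is 1 array, the bar the group mean and the whisker the SD. Col6a4 has means of -0.37 in PBS and -0.12 in Stat6-/- perfusate and of 0.98 to 1.15 in the other groups, while Ccn2 is lowest in OVA (-2.15) and Stat6+/- (-1.54) perfusate.

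Promoters are shown for the higher genes Col6a4 and Col13a1 and for Ccn1, the lower gene of lowest p against PBS (described further on), so that their letters can be set beside motifs of factors known to act on matrix genes. The sequences are RefSeq's (assembly GRCm38.p6), from 250 bases before to 50 bases after a gene's start, 5′ to 3′ on the gene's strand: Col6a4 at chr9:106096642-106096941, Col13a1 at chr10:61979059-61979358 and Ccn1 at chr3:145649936-145650235, all on the minus strand. Capitals mark motif matches: in Col6a4 a CArG box, the motif of serum response factor, and in Ccn1 CATTCC, the TEAD motif GGAATG read on the other strand, and the SMAD motif CAGAC. No searched motif matched in Col13a1.
Col6a4: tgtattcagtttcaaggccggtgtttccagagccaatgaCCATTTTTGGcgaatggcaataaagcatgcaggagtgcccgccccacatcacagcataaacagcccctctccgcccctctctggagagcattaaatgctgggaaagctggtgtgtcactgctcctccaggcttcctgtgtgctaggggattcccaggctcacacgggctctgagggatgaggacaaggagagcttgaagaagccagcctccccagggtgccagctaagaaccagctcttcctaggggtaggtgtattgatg
Col13a1: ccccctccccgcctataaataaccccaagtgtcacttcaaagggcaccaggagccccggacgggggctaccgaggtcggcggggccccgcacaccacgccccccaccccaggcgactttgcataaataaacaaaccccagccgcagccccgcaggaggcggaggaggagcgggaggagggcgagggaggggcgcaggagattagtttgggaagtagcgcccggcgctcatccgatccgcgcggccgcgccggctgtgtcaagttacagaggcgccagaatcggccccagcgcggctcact
Ccn1: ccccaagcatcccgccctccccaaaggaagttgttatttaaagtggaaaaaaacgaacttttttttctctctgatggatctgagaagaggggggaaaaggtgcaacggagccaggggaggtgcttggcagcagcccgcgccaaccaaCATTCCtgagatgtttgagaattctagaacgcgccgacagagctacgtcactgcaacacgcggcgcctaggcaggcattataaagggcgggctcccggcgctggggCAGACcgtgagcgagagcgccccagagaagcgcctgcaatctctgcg

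Of the 82 genes, 53 matched a promoter entry, with 61 promoters in all, searched on both strands. The STAT6 motif, TTC and GAA separated by 4 bases, lay in 1 of the 61 (Bgn), beside 6.95% of all 32851 promoters. The TEAD motif lay in 10 of 61 (14.7% of all), the SMAD motif in 37 of 61 (49.6%), the AP-1 motif TGANTCA in 1 of 61 (7.81%) and the CArG box in 2 of 61, those of Col6a4 and Lama2 (1.63%). A match is a description of letters in this window, and says nothing of binding.

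In Epi+ perfusate, Col6a4 was raised much as in Stat6+/- perfusate. Its Epi+ arrays read 1.33, 1.54, 0.61, 1.38 and 0.13, above the Stat6-/- array of the same preparation in 5 of 5, by 0.47 to 1.93, although the groups overlapped. The difference from Stat6-/- was 1.12 ± 0.19, or 2.17-fold (limma adjusted p = 0.00662), and Col6a4 was the sole call among 79 matrix genes, where 0.474% of all features were called, 0.152% higher and 0.322% lower. Next by p were Lamc3 (-0.64 ± 0.16, limma adjusted p = 0.0976) and Col13a1 (0.65 ± 0.18, limma adjusted p = 0.155). The Col6a4 call was lost with values as deposited, with only the groups compared in the fit and without the reference block.

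Between Stat6+/- and Epi+ perfusate no matrix gene was called by limma, beside 0.0379% of all features (0.0253% higher and 0.0126% lower), and 10 of 79 (12.7%) had an unadjusted p under 0.05, beside 6.98% of all. Col6a4 differed by 0.15 ± 0.19 here and Col13a1 by 0.39 ± 0.18. The genes with the lowest p were Col9a1, a cartilage collagen (-1.57 ± 0.55, limma adjusted p = 0.467), Timp3 (-0.78 ± 0.29, limma adjusted p = 0.509) and Col17a1, a hemidesmosome collagen of basal epithelial cells (0.52 ± 0.19, limma adjusted p = 0.535). Ccn2 lay between the groups, with Epi+ arrays at 0.18, -0.32, -1.75, -0.88 and -1.33, and passed against neither Stat6-/- (-0.60 ± 0.29) nor Stat6+/- (-0.72 ± 0.29). These comparisons share the Stat6-/- or Stat6+/- arrays with the one before, so they are not independent of it.

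Set against PBS, the perfusate of IL-13 Stat6+/- animals had 12 called matrix genes of 79 (15.2%), 3 higher and 9 lower, beside 7.13% of all features, 2.89% higher and 4.24% lower. Col13a1, Col6a4 and the crosslinking enzyme Lox were higher. The chains of type I collagen (Col1a1, Col1a2), Col9a1, Lamb2, Sparc, Dcn, Ccn1, Ccn2 and Timp3 were lower. The median difference was -0.16 over the matrix genes and -0.03 over all features. With only the groups compared in the fit, no perfusate group kept a matrix gene called against PBS. With values as deposited, such calls remained only in Stat6+/- perfusate, all of them higher. All comparisons with PBS share its 5 arrays.

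PBS arrays read 0.34, -0.29, -0.83, -0.53 and -0.56 for Col6a4 and 0.67, 0.01, 0.03, -0.20 and -0.31 for Col13a1. Neither group of PBS values reached the Stat6+/- arrays. Col6a4 was higher by 1.52 ± 0.19, or 2.87-fold (limma adjusted p = 7.52e-05), and Col13a1 by 1.48 ± 0.18, or 2.79-fold (limma adjusted p = 6.09e-05). Lox differed by 0.97 ± 0.29 (limma adjusted p = 0.0465) with arrays from -0.82 to 1.44 in Stat6+/- and from -0.83 to 0.61 in PBS. The Lox groups overlapped widely, and the call held in 3 of 10 fits with 1 array left out.

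Type I collagen, the main load-bearing fibril of the airway wall, was lower in both of its chains. Col1a1 read -0.81, -0.23, -0.45, -0.61 and -0.41 in Stat6+/- and -0.05, 1.24, 1.39, 0.18 and 0.18 in PBS. Every Stat6+/- array lay below every PBS array, and the difference was -1.09 ± 0.29 (limma adjusted p = 0.0268), though 4 of 10 fits with 1 array left out kept the call. Col1a2 read -0.95, -1.21, -1.69, -0.65 and -0.49 in Stat6+/- and -0.66, 1.00, 0.55, 0.62 and 0.37 in PBS. PBS array 25 alone overlapped the Stat6+/- arrays, and the difference was -1.37 ± 0.32, 2.59-fold lower (limma adjusted p = 0.0142). Without PBS array 22 it was -1.20 (limma adjusted p = 0.0523).

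Sparc, a collagen-binding matricellular protein, read -1.63, -2.20, -2.004, -0.55 and -0.21 in Stat6+/- and -0.99, 1.07, 0.32, 0.75 and 0.45 in PBS. PBS array 25 was again low, and the difference was -1.64 ± 0.39, 3.11-fold lower (limma adjusted p = 0.0152); without PBS array 23 it was -1.36 (limma adjusted p = 0.0542). Dcn (decorin), a proteoglycan that coats collagen fibrils, read -0.43, -0.00, -2.26, -1.36 and -1.65 in Stat6+/- and 0.25, 0.92, -0.57, 0.14 and 0.61 in PBS. It overlapped and differed by -1.41 ± 0.34 (limma adjusted p = 0.0164), or by -1.15 without PBS array 26 (limma adjusted p = 0.055). Within preparations Col1a1, Col1a2, Sparc and Dcn were lower in Stat6+/- perfusate in 5 of 5.

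Ccn1, an angiogenic CCN protein, read -2.47, -2.05, -3.00, -2.39 and -2.89 in Stat6+/- and -2.16, 0.22, -0.63, -0.43 and -1.85 in PBS. The Stat6+/- arrays were uniformly low while PBS arrays were scattered, and the difference was -1.59 ± 0.36, 3.02-fold lower (limma adjusted p = 0.0115). The Ccn1 call was kept with each of 10 arrays left out, but lost with values as deposited and with only the groups compared. Ccn2 differed by -1.08 ± 0.29 (limma adjusted p = 0.0288), Timp3 by -1.08 ± 0.29 (limma adjusted p = 0.027) and Lamb2 by -0.62 ± 0.18 (limma adjusted p = 0.0414). These calls held in 5, 4 and 1 of the 10 fits with 1 array left out. Col9a1 read -1.65, -0.01, -4.36, -0.44 and -0.58 in Stat6+/- and 0.99, 0.88, 1.18 and 0.73 on the 4 PBS arrays with a value. Its groups did not overlap, 1 Stat6+/- array lay far below the rest, and its difference of -2.33 ± 0.59 (limma adjusted p = 0.0235) missed the threshold without PBS array 23 (-2.38, limma adjusted p = 0.0529) or 22 (-2.15, limma adjusted p = 0.0807).

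The markers of fibroblasts, which make most of these proteins, are given beside the lower calls. Of 9 fibroblast markers tested, 0 were called by limma against PBS and 2 had an unadjusted p under 0.05. Their mean ran from -0.60 to 0.07 on Stat6+/- arrays and from -0.10 to 0.23 on PBS arrays. Of 7 smooth muscle markers 0 were called and 1 had an unadjusted p under 0.05, with means from -0.64 to 0.36 and from -1.003 to 1.07. Their part in the result was not tested. The 5 perfusate groups are listed here by their mean of Col1a1, and the order was not tested. Col1a1 stood at -0.50 ± 0.22 in Stat6+/-, -0.29 ± 0.61 in Stat6-/-, -0.02 ± 0.34 in Epi+, 0.34 ± 0.42 in OVA and 0.59 ± 0.67 in PBS perfusate (SD, n = 5). Sparc ran from -1.32 ± 0.89 in Stat6+/- to 0.32 ± 0.79 in PBS, and Dcn from -1.14 ± 0.92 to 0.27 ± 0.56. For Dcn the groups between did not keep the order of Col1a1. The count of 12 calls fell to 7 without Stat6+/- array 7 or 6 and to 6 without PBS array 22.

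Epi+ perfusate had 7 matrix genes called against PBS (8.86%), 4 higher and 3 lower, beside 3.01% of all features, 1.38% higher and 1.63% lower. Col6a4 (1.37 ± 0.19, limma adjusted p = 0.000653), Col13a1 (1.09 ± 0.18, limma adjusted p = 0.00289), the CCN protein Ccn3 (1.17 ± 0.27, limma adjusted p = 0.0258) and Timp4 (0.99 ± 0.23, limma adjusted p = 0.0271) were higher. Col17a1 (-0.92 ± 0.19, limma adjusted p = 0.0141), Lamb1 (-1.27 ± 0.30, limma adjusted p = 0.0309) and Dcn (-1.27 ± 0.34, limma adjusted p = 0.0493) were lower. Each of the 7 kept its direction in 5 of 5 preparations, and for each the Epi+ arrays overlapped the PBS arrays. The count was 4 without Epi+ array 19, 3 without Epi+ array 17, 3 without PBS array 23, 2 without PBS array 22 and 12 without PBS array 25; the Col17a1 call was lost without PBS array 22 (-0.87, limma adjusted p = 0.05).

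In Stat6-/- perfusate, Lamb1 was the sole matrix gene of 79 called against PBS (1.27%), beside 0.619% of all features, 0.328% higher and 0.291% lower. PBS arrays read -1.25, 0.06, 0.35, 0.06 and 0.38, and the Stat6-/- arrays lay below the PBS array of the same preparation in 5 of 5, with differences from -3.33 to -0.98. The difference was -1.86 ± 0.30, 3.63-fold lower (limma adjusted p = 0.0104), and only the lowest PBS array overlapped. Without the arrays of low Y-linked signal it was -1.75 and missed the threshold (limma adjusted p = 0.0571). Next by p were Col11a1 (0.59 ± 0.17, limma adjusted p = 0.106) and Lox (0.98 ± 0.29, limma adjusted p = 0.107), while Col6a4 differed by 0.25 ± 0.19 and Col13a1 by 0.43 ± 0.18. The count was 2 without PBS array 25 or without Stat6-/- array 12.

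**Figure D2:**
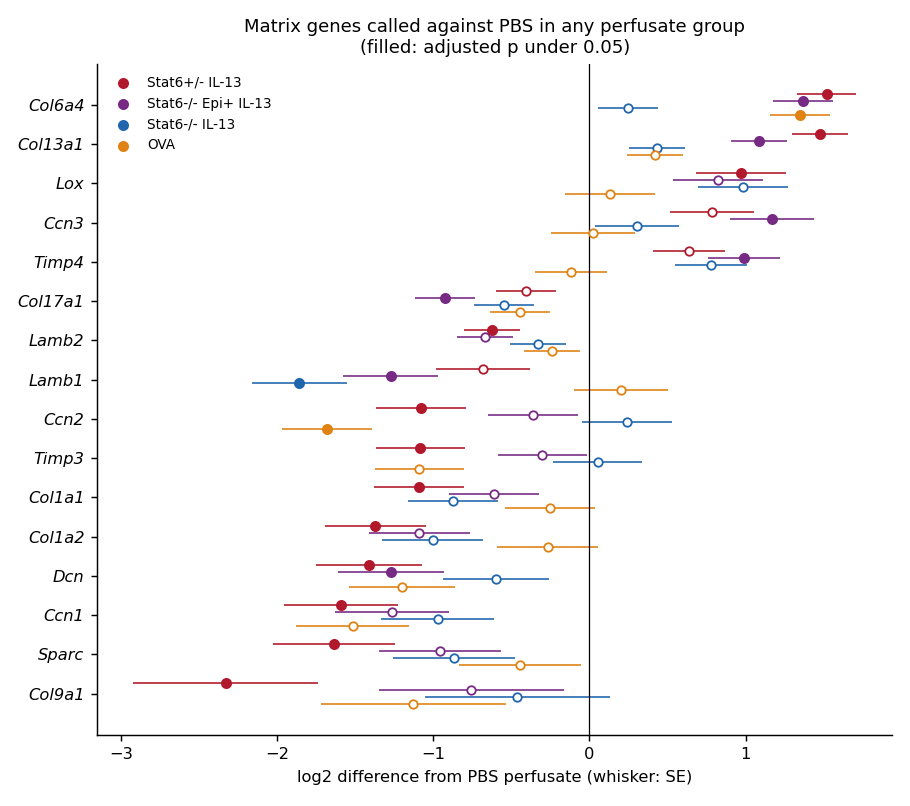
Log2 difference from PBS perfusate (horizontal axis, whiskers the standard error) of the 16 matrix genes called in any perfusate group, for Stat6+/-, Stat6-/-, Epi+ and OVA, filled where the gene passed the test. Col6a4 is higher by 1.35 to 1.52 in OVA, Epi+ and Stat6+/- perfusate and by 0.25 in Stat6-/- perfusate.

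OVA perfusate had 2 matrix genes called of 79 (2.53%), beside 0.246% of all features (0.171% higher and 0.0758% lower), and both were also called in Stat6+/- perfusate against the same PBS arrays. Col6a4 read 1.15, 1.55, 0.67, 0.93 and 0.58, above every PBS array, and was higher by 1.35 ± 0.19, or 2.55-fold (limma adjusted p = 0.00246). Ccn2 read -1.90, -1.83, -3.10, -2.17 and -1.72 and lay below every PBS array, which read -0.08, -0.23, -0.94, -0.17 and -0.89. Its difference was -1.68 ± 0.29 (limma adjusted p = 0.0112), or -1.53 without PBS array 24 (limma adjusted p = 0.0544), which left 1 call. Ccn1 read -2.63, -1.84, -2.86, -2.73 and -2.38 and was next by p (-1.52 ± 0.36, limma adjusted p = 0.0963). Col13a1 differed by 0.42 ± 0.18 (limma adjusted p = 0.469) and the type I chains by -0.25 ± 0.29 and -0.27 ± 0.32.

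Between IL-13 Stat6+/- and Stat6-/- lungs, Thbs1, Col14a1 and Col3a1 were higher and Lum and Col23a1 lower. These were 5 of 72 genes tested (6.94%), beside 5.01% of all 15116 features (3.3% higher and 1.71% lower), and 19.4% of matrix genes had an unadjusted p under 0.05, beside 19.4% of all. The share of matrix genes is therefore near the background. The median difference was -0.07 over the matrix genes and -0.04 over all.

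Thbs1 (thrombospondin 1) is a platelet and macrophage glycoprotein that binds matrix and can release TGF-beta from its latent form. It read 0.14, 2.55, 3.20, 2.03 and 2.73 on Stat6+/- arrays 1, 3, 4, 5 and 6. The Stat6-/- arrays read -1.28, -0.40, -0.49, -0.95 and -1.53 and the Epi+ arrays 0.18, -1.52, -0.72, -0.89 and -1.45. Every Stat6+/- array exceeded every Stat6-/- array, and Stat6+/- array 1, the lowest of its group, overlapped 1 Epi+ array. The difference from Stat6-/- was 3.06 ± 0.44, or 8.33-fold (limma adjusted p = 0.00155), and was 3.41 and 2.83 within reference pools 3 and 4. It passed in 8 of 8 alternative analyses and with each of 10 arrays left out, from 2.46 to 3.50.

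Col14a1, a collagen that binds the surface of fibrils, read 0.74, 0.70, 0.54, 0.72 and 2.13 in Stat6+/- and -0.62, -0.33, 0.15, -0.70 and -0.67 in Stat6-/- lungs. The groups did not overlap, array 6 stood above the rest, and the difference was 1.40 ± 0.25, or 2.64-fold (limma adjusted p = 0.00674). The spots of its 2 accessions gave 1.75 and 1.05 and correlated at 0.247 over 40 arrays. With the values as deposited the difference was 1.03 (limma adjusted p = 0.167), and without the arrays of low Y-linked signal it was 1.32 (limma adjusted p = 0.0541). Col3a1, a fibrillar collagen of elastic tissues, read 0.12, 0.21, -1.99, -0.49 and -1.59 in Stat6+/- and -0.79, -2.13, -2.93, -0.98 and -1.40 in Stat6-/- lungs. Over both reference pools the groups overlapped widely, while within each pool the Stat6+/- arrays lay above the Stat6-/- arrays. The difference was 0.89 ± 0.22 (limma adjusted p = 0.0347), and it was 0.74 and 1.00 within the pools.

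Lum (lumican), a proteoglycan that spaces collagen fibrils, read -2.62, -3.20, -3.36, -2.95 and -4.63 in Stat6+/- and -0.95, -1.52, -1.59, -2.64 and -0.94 in Stat6-/- lungs. Only 1 Stat6-/- array reached the Stat6+/- values, and the difference was -1.83 ± 0.44, 3.54-fold lower (limma adjusted p = 0.0324). Col23a1, a membrane collagen, read -1.04, -1.18, 0.01, -0.99 and -0.44 in Stat6+/- and -0.50, 0.53, 0.39, -0.01 and -0.37 in Stat6-/- lungs. The groups overlapped over both pools but not within either pool, with a difference of -0.74 ± 0.18 (limma adjusted p = 0.0324). The Col3a1, Lum and Col23a1 calls held in 4, 4 and 3 of 10 fits with 1 array left out. Lum (-1.62, limma adjusted p = 0.184) and Col23a1 (-0.77, limma adjusted p = 0.104) missed the threshold without the arrays of low Y-linked signal. The count of 5 was 2 without Stat6-/- array 4 or 6 or Stat6+/- array 3, and 3 without Stat6-/- array 5 or Stat6+/- array 6.

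**Figure D3:**
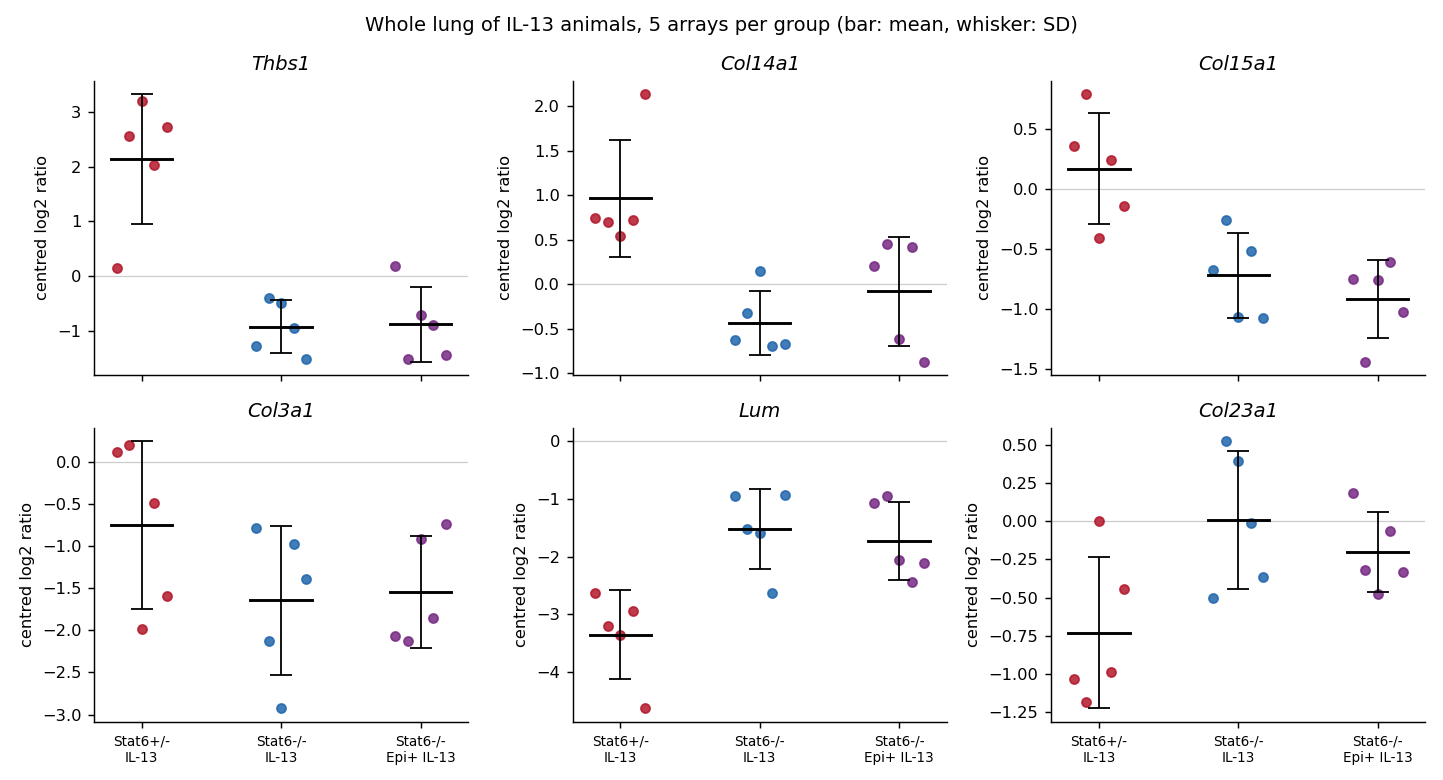
Centred log2 ratio to the reference (vertical axis) of 6 matrix genes in the 3 IL-13 groups of whole lung; each point is 1 array, the bar the group mean and the whisker the SD. Thbs1 has means of 2.13 in Stat6+/-, -0.93 in Stat6-/- and -0.88 in Epi+ lungs, and Lum -3.35, -1.53 and -1.73.

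Epi+ lungs had means of -0.88 for Thbs1 and -1.73 for Lum, beside -0.93 and -1.53 in Stat6-/- lungs. Comparing Epi+ with Stat6-/- lungs, limma called 0 of 72 matrix genes, beside 0.0794% of all features, and 1 of 72 (1.39%) had an unadjusted p under 0.05, beside 4.19% of all. The lowest p belonged to Ccn5 (1.39 ± 0.56), Loxl2 (-0.46 ± 0.22) and Col23a1 (-0.34 ± 0.18), each with a limma adjusted p of 0.983. Against Epi+ lungs, Stat6+/- lungs had 3 of 72 matrix genes called (4.17%), all higher, beside 3.55% of all features, 2.46% higher and 1.08% lower. The share called is near the background, and 27.8% of matrix genes had an unadjusted p under 0.05, beside 19.4% of all. Thbs1 was higher by 3.18 ± 0.45, or 9.06-fold (limma adjusted p = 0.00226), Col14a1 by 1.20 ± 0.26 (limma adjusted p = 0.0234) and Col15a1 by 1.04 ± 0.25 (limma adjusted p = 0.0424). Col15a1, a basement membrane zone collagen of vessels and muscle, read 0.36, 0.79, -0.41, 0.24 and -0.14 in Stat6+/- and -0.75, -1.44, -0.76, -0.61 and -1.03 in Epi+ lungs, without overlap. Lum (-1.66 ± 0.45, limma adjusted p = 0.062) and Tnc (2.56 ± 0.79, limma adjusted p = 0.0939) did not pass. The count was 1 without Epi+ array 3 or 6 and 5 without Stat6+/- array 1, and the Col14a1 call was lost without Epi+ array 3 (1.18, limma adjusted p = 0.0643) or 6 (1.09, limma adjusted p = 0.0641).

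Macrophage markers moved with the lung result. Of 4 tested, 3 were higher in Stat6+/- than in Stat6-/- lungs (Cd68 by 3.12 ± 0.32, Marco by 2.28 ± 0.49 and Mrc1 by 1.86 ± 0.31). The mean of the list ran from -0.03 to 3.07 on Stat6+/- arrays and from -0.50 to 0.37 on Stat6-/- arrays, and its part in the result was not tested. The endothelial markers Tek (-1.35 ± 0.22) and Kdr (-1.23 ± 0.28), 2 of 6 tested, were lower. Of 9 fibroblast markers S100a4 was higher (2.36 ± 0.29) and Tcf21 lower (-1.30 ± 0.25), and of 7 smooth muscle markers 0 were called by limma and 0 had an unadjusted p under 0.05. Of 6 basal epithelial markers Aqp3 was higher (1.76 ± 0.47), the median was 1.09, and the list mean ran from -0.40 to 0.78 on Stat6+/- and from -1.52 to -0.43 on Stat6-/- arrays. Of 5 alveolar markers Sftpd (1.63 ± 0.25) and Sftpa1 (0.90 ± 0.21) were higher, and of 6 secretory markers Muc5b (2.85 ± 0.33) and Muc5ac (3.87 ± 0.49) were higher and Scgb3a2 lower (-3.19 ± 0.45). The cartilage marker Sox9, 1 of 6 tested, was higher (2.04 ± 0.23) and the blood marker Alas2 lower (-1.48 ± 0.30). The part of these cell types was not tested either.

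OVA lungs gave no call: limma called 0 of 81 matrix genes against PBS, beside 1.94% of all 15953 features (1.64% higher and 0.295% lower), and 12 (14.8%) had an unadjusted p under 0.05, beside 16.0% of all. The median difference was -0.22 over matrix genes and 0.03 over all. Timp3 had the lowest p, at -0.18, 0.58, -0.06, -0.34 and 0.19 in OVA and 1.36, 0.74, 0.95, 0.93 and 0.64 in PBS lungs, in no overlap (-0.89 ± 0.25, limma adjusted p = 0.0976). Col3a1 followed, at -1.13, -1.13, -0.88, 0.97 and -0.74 in OVA and -1.43, -2.34, -2.15, -2.24 and -1.91 in PBS (1.43 ± 0.41, limma adjusted p = 0.107). OVA array 5 stood well above the others in Col3a1. Col6a4 came next (1.52 ± 0.45, limma adjusted p = 0.12), with OVA arrays from 1.08 to 2.58 and PBS arrays from -0.60 to 1.68. By role, 9 of 11 fibrillar chains had a positive difference (median 0.30) and 8 of 10 laminin chains a negative one (median -0.69), with none called in either. Without PBS array 3 the count of calls was 1. Of 5 macrophage markers 3 were higher, their mean running from 1.16 to 2.22 on OVA and from -0.55 to 0.50 on PBS arrays. Of 6 endothelial markers limma called 0, but all 6 had negative differences (median -0.94) and 5 had an unadjusted p under 0.05. Their mean ran from -1.52 to -0.84 on OVA and from -0.43 to -0.16 on PBS arrays. The part of either cell type was not tested. Without OVA array 5, the array of low Y-linked signal, the count of calls was again 0 and Col3a1 differed by 1.04 (limma adjusted p = 0.0541).

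The difference between tissues was tested as an interaction, with all 40 arrays of the larger platform fitted together. Each gene had 1 estimate of spread for both tissues. For a gene more scattered in lung than in perfusate, the error and p-value of the gap can therefore be too low. The Stat6+/- minus Stat6-/- difference was unequal in perfusate and lung for 8 of 71 matrix genes (11.3%), beside 4.5% of all 14460 features, 1.32% more positive in perfusate and 3.17% more positive in lung. The perfusate difference was the more positive for Col13a1, Lum and Lamb1, and the lung difference for Thbs1, Col14a1, Col15a1, Ccn2 and Tnc. Col13a1 differed by 1.05 in perfusate and by -0.34 ± 0.20 in lung, a gap of 1.38 ± 0.26 (limma adjusted p = 0.00093). Thbs1 differed by 0.55 ± 0.22 in perfusate and by 3.06 in lung, a gap of -2.51 ± 0.48 (limma adjusted p = 0.00125). Both held with each of the 20 arrays left out, and both missed the threshold without the arrays of low Y-linked signal, at 1.31 (limma adjusted p = 0.0559) and -2.40 (limma adjusted p = 0.0679).

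The other gaps were smaller relative to their error. They were -1.41 ± 0.36 for Col14a1 (limma adjusted p = 0.0176), -1.09 ± 0.29 for Col15a1 (limma adjusted p = 0.0225), 1.78 ± 0.49 for Lum (limma adjusted p = 0.0292), 1.39 ± 0.40 for Lamb1 (limma adjusted p = 0.0427) and -1.49 ± 0.44 for Ccn2 (limma adjusted p = 0.0443). Tnc (tenascin C), a glycoprotein of wounds and inflamed airways, was called for the gap (-2.56 ± 0.76, limma adjusted p = 0.0475) but in neither tissue alone. Its lung arrays were scattered, at 1.05, 3.11, -0.18, 0.99 and 0.25 in Stat6+/- and -0.34, -2.34, -0.92, -1.46 and -0.42 in Stat6-/- lungs (2.14 ± 0.78, limma adjusted p = 0.146), and its perfusate difference was -0.42 ± 0.19. The error of the Tnc gap, 0.76, is below that of the lung difference alone, so the Tnc call rests on the shared estimate of spread. Col6a4 differed by 0.12 ± 1.21 in lung, an error too wide to set beside perfusate (gap 1.15 ± 0.93). Of the 20 fits with 1 array left out, Col14a1 kept its call in 20, Col15a1 in 16, Lum in 12, Lamb1 in 7, and Ccn2 and Tnc in 5 each. Without the arrays of low Y-linked signal Col14a1 kept its call (-1.85, limma adjusted p = 0.0271), and Col15a1 (-1.14), Lum (1.18), Lamb1 (1.17), Ccn2 (-1.61) and Tnc (-2.19) lost theirs, with limma adjusted p-values from 0.11 to 0.503. With single arrays left out, Col15a1 lost it without perfusate Stat6-/- array 11 (-0.97) or 14 (-1.02), lung Stat6-/- array 6 (-0.97) or lung Stat6+/- array 3 (-0.95). The count fell to 3 without lung Stat6-/- array 6, to 4 without perfusate Stat6+/- array 4 or 8, and to 5 without perfusate Stat6+/- array 6 or 7, perfusate Stat6-/- array 10, 11, 12 or 14, lung Stat6-/- array 1 or lung Stat6+/- array 6.

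**Figure D4:**
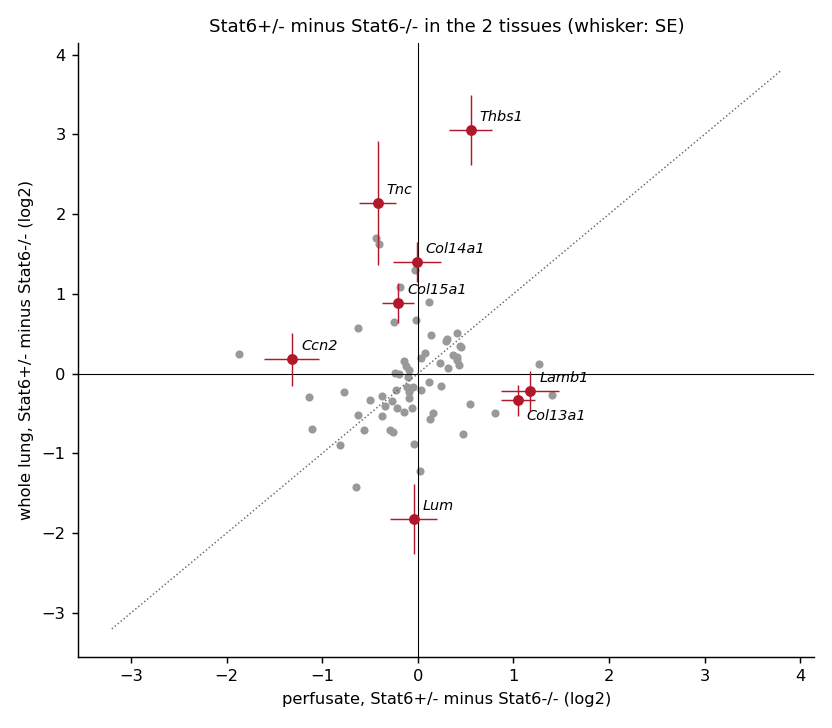
Stat6+/- minus Stat6-/- log2 difference of each matrix gene in perfusate (horizontal axis) and whole lung (vertical axis), whiskers the standard error, with the dotted line marking equal differences. The 8 genes whose differences were unequal are named in red; Thbs1 lies at 0.55 and 3.06, Col13a1 at 1.05 and -0.34.

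By role, calls were few in each group. Of 11 fibrillar chains, Col1a1 and Col1a2 were called in Stat6+/- perfusate against PBS (median of the group -0.15) and Col3a1 in lung between Stat6 genotypes (median of 8 tested -0.22). In perfusate Col3a1 differed from PBS by 0.09 ± 0.14 in Stat6+/- animals. Among basement membrane collagens only Col15a1 was called in any comparison, and Col4a1, a main chain of type IV collagen, in none (0.44 ± 0.27 between Stat6 genotypes in perfusate and 0.35 ± 0.20 in lung). Of 11 elastic fibre and crosslinking proteins Lox alone was called. Eln (elastin) differed between Stat6 genotypes by -0.14 ± 0.30 in perfusate and -0.48 ± 0.24 in lung, and Fbln5, which assembles elastic fibres, by 0.04 ± 0.15 and -0.20 ± 0.21.

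Several textbook genes of airway remodelling were not called in any comparison. Postn (periostin), an IL-13 response gene of airway epithelium and fibroblasts, had perfusate group means from -0.36 to 1.21 with SDs of 0.68 to 2.22 (n = 5 or fewer). Its lung means ran from -1.34 to -0.84. Timp1, Bgn and Lamb3 differed between Stat6 genotypes in perfusate by -0.10 ± 0.62, 0.04 ± 0.34 and -0.09 ± 0.21. Fn1, measured only in OVA and PBS lungs, stood at -0.27 ± 0.36 and -0.61 ± 0.93 (SD, n = 5) and differed by 0.34 ± 0.42 (limma adjusted p = 0.73). The 2 spots of Postn correlated at 0.461 and those of Timp1 at 0.056 over 35 and 28 arrays.

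**Figure D5:**
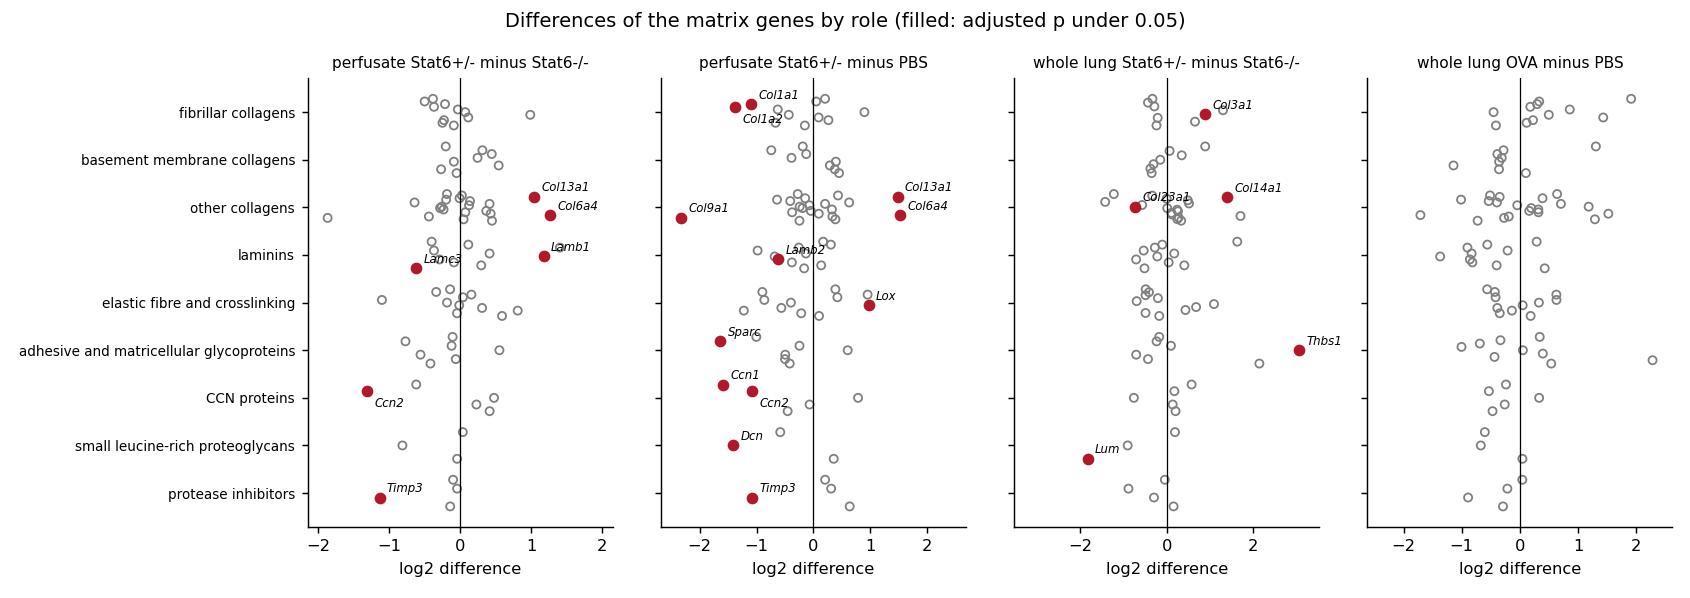
Log2 differences (horizontal axis) of the matrix genes by role group (vertical axis) in 4 comparisons; each point is 1 gene, and filled points passed the test. In perfusate Stat6+/- against PBS 12 of 79 genes are filled, and in lung OVA against PBS none of 81.

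The genes that act on the matrix were followed as lists. These lists, here and in the paragraphs that follow, were chosen with earlier results of these data known. Their shares beside all features are therefore descriptions only. Of 30 matrix-degrading enzymes tested in IL-13 lungs, 8 were higher in Stat6+/- than in Stat6-/- animals and 0 lower, with a median of 0.60, where 3.3% of all features were called higher. The cysteine protease Ctsk was higher by 4.82 ± 0.37, the metalloproteinase Mmp19 by 2.94 ± 0.35, Adam8 by 2.87 ± 0.27 and the cysteine protease Ctss by 2.55 ± 0.29. Macrophages also express cathepsins, and the macrophage marker means given above stand beside this list too. In OVA lungs 4 of 32 were higher (among them Ctss by 1.85 ± 0.28 and the macrophage elastase Mmp12 by 3.72 ± 0.61) and Mmp13 was lower (-1.09 ± 0.20), where 1.64% and 0.295% of all features were. In perfusate Plat, the tissue plasminogen activator, was the sole call of 31 between Stat6 genotypes (1.95 ± 0.21, limma adjusted p = 2.48e-05), where 1.09% of all features were called higher. Plat was also higher in Epi+ than in Stat6-/- perfusate (1.27 ± 0.21).

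TGF-beta and BMP genes gave more lower than higher calls. In the perfusate comparisons given here all features did too, while in lung all features gave more higher calls. In perfusate the morphogen Bmp4 (-2.07 ± 0.23) and Tgfb3 (-1.02 ± 0.15) were lower in Stat6+/- than in Stat6-/- animals, 2 of 32 tested, where 1.98% of all features were called lower. Bmp4 was lower in Epi+ perfusate as well (-1.30 ± 0.23). Against PBS, 6 of 32 were lower in Epi+ perfusate, among them Tgfb3 (-0.80 ± 0.15) and Tgfbi (-0.83 ± 0.18), where 1.63% of all features were called lower. In Stat6+/- perfusate 3 were lower and 1 higher, where 4.24% and 2.89% of all features were. In lung 5 of 32 were lower between Stat6 genotypes, beside 1.71% of all features: the TGF-beta co-receptors Eng (-1.55 ± 0.24) and Tgfbr3 (-1.19 ± 0.19), the inhibitor Smad6 (-1.67 ± 0.26) and, among the others, Bmp6 (-1.06 ± 0.19). Eng is also a gene of endothelial cells, whose markers Tek and Kdr were lower in the same arrays, and the part of those cells was not tested.

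Some receptors and other matrix proteins were called too. Of 24 matrix receptors in perfusate, the scavenger receptor Cd36 (-1.81 ± 0.28) and the syndecan Sdc4 (-1.11 ± 0.24) were lower in Stat6+/- than in Stat6-/- animals. In lung the hyaluronan receptor Cd44 was higher (1.40 ± 0.34) and Sdc2 (-1.37 ± 0.33) and the integrin chain Itga8 (-1.46 ± 0.38) were lower, of 25. Of 28 other proteoglycans and matrix proteins, the fibulin-like Efemp1 was lower in Stat6+/- perfusate against Stat6-/- (-1.43 ± 0.25) and against PBS (-1.82 ± 0.25). Of 18 collagen-modifying genes 1 was called between Stat6 genotypes in each tissue, the prolyl 3-hydroxylase partner Crtap in perfusate (-0.54 ± 0.14) and the transglutaminase Tgm2 in lung (1.36 ± 0.26). Between Stat6 genotypes 3.07% of all features were called in perfusate and 5.01% in lung. In Stat6+/- perfusate against PBS 7.13% were.

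Matrix genes that are known to be made together were compared across arrays after removing group and reference means, as 7 pairs in 2 tissues, 14 relations in all. In the 15 IL-13 lung arrays Col1a1 and Col1a2 correlated at Pearson's r = 0.758 (permutation p = 0.00099, adjusted 0.0139) and Spearman's rho = 0.639 (permutation p = 0.012, adjusted 0.056), and r was 0.591 without the 2 arrays farthest from the median. Col1a1 and Sparc correlated at r = 0.674 in lung (permutation p = 0.00615, adjusted 0.0379; rho = 0.664, permutation p = 0.00867, adjusted 0.056; r = 0.657 without those arrays). In the 25 perfusate arrays the same pair gave r = 0.516 (permutation p = 0.00812, adjusted 0.0379; rho = 0.548, permutation p = 0.0053, adjusted 0.056; r = 0.594 without those arrays). Each relation passed by r and missed by rho. The permutation p-values do not allow for the group and reference means removed from the 15 and 25 arrays, so they are too low. Whether any relation would pass with that allowed for was not tested. The other 11 relations, among them Col4a1 with Col4a2 and Ccn1 with Ccn2, did not pass. Col1a1 with Col1a2 in perfusate was also among them (r = 0.383, permutation p = 0.06, adjusted 0.14).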

How the data were processed

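Mouse airway RNA was measured in 50 arrays of 2 channels. Per the labels, perfusate RNA went through 1 round of amplification (not stated for 3 arrays of reference preparation 1.3) and whole lung RNA was not amplified; the labels do not tie arrays to separate animals, so a p-value reflects the spread among these arrays alone, possibly technical. Each deposited value is a log2 ratio of 1 spot, from platforms of 19152 (40 arrays) and 18240 spots (10 whole lung OVA and PBS arrays); the sources used here give neither the scanner, background correction and normalization nor the direction of the ratio, and no spot intensities were used, so no probe was filtered on signal.

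Deposited array medians ran from -0.96 to 0.30, so each array was centred on its median. The group means of the removed medians differed by more than 0.1 for Stat6+/- against Stat6-/- (0.12), Stat6-/- against PBS (-0.20) and Epi+ against PBS (-0.18) in perfusate, and in lung for Stat6+/- against Stat6-/- (-0.37), Epi+ against Stat6-/- (-0.16), Stat6+/- against Epi+ (-0.21) and OVA against PBS (-0.17); differences are relative to these shifts. Spots with 1 gene symbol in the platform annotation (15418 and 14857; 7 and 6 had several, 3727 and 3377 were unlisted) were averaged by gene. The matrix genes had 93 spots on the larger platform, with 2 spots for 12 genes, and 83 on the smaller, with 2 for 1.

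Linear models were fitted with limma 3.58.1 in R 4.3.3 on all groups of a tissue and platform, with the reference preparation (perfusate, 5) or pool (IL-13 lung, 2) as a block, and a gene needed values on 3 or more arrays in each group. Not tested were Col8a1 and Thbs4 in perfusate, Col10a1, Col11a1, Col25a1, Col27a1, Col2a1, Col4a6, Col9a2, Loxl4 and Thbs4 in IL-13 lung and Col19a1 in OVA and PBS lung. The fit was run on simulated data of independent noise without reference effects, which cannot show how stable the calls in the real arrays are. Tables of the 2 platforms were centred separately. The text names every called matrix gene, the 3 of lowest p where fewer passed, and a set of textbook genes; of other lists it gives counts and up to 4 of the calls of lowest p. Genes and lists were chosen with earlier results of these data known. Names came from the platform annotation and promoters from RefSeq. Alternatives were the values as deposited, arrays scaled to 1 spread, other spot averaging, genes on every array, only the groups compared, no reference block, the replicate number as a block, and leaving out each array, the arrays of low Y-linked signal, or preparation 1.3.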

Additional observations from a re-analysis of the deposited data

Results flagged for a closer look

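In 17 of 237 sets of 4 or 5 arrays of 1 group, for the 24 genes called in any comparison, 1 array stood far from the others of its group; chance gives about 1 in 20 groups. Whole lung OVA array 5 accounted for 7 of them: Col15a1 at 1.49 (others -0.47 to -0.28), Col17a1 at 0.74, Col3a1 at 0.97 and Lox at 0.80 were high, and Col9a1 at -1.44 and Dcn at -1.79 low. On the same array Lamb2 was at -4.10, where the others ran from -1.81 to -0.98. That array also had Il13 at 2.57, where the other OVA lungs ran from 0.68 to 1.14, and Y-linked Eif2s3y at -2.75. Perfusate PBS array 25 stood apart in Lamb1 (-1.25), Col23a1 (-0.72), Lox (0.61) and Lum (0.79). In whole lung Stat6+/- the arrays were 6 for Col14a1 (2.13), 3 for Col17a1 (4.70) and 4 for Lamb2 (-1.89). The remaining sets were Col14a1 on perfusate OVA array 29 (1.99), Col23a1 on perfusate Stat6+/- array 4 (-1.38) and Col9a1 on whole lung PBS array 2 (-0.75).

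The Stat6+/- minus Stat6-/- difference differed between perfusate and whole lung by the interaction test for 8 genes: by 1.38 for Col13a1, -2.51 for Thbs1, -1.41 for Col14a1, -1.09 for Col15a1, 1.78 for Lum, 1.39 for Lamb1, -1.49 for Ccn2 and -2.56 for Tnc, with limma adjusted p-values from 0.00093 to 0.0475.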

How the results depend on the processing

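Counts of called matrix genes under each alternative are given against perfusate 6 (Stat6+/- against Stat6-/-), 1 (Epi+ against Stat6-/-), 2 (OVA against PBS), 1 (Stat6-/- against PBS), 12 (Stat6+/- against PBS) and 7 (Epi+ against PBS), lung 5 (Stat6+/- against Stat6-/-) and 3 (Stat6+/- against Epi+), and 8 for the tissue difference. In that order, values as deposited gave 2, 0, 0, 0, 2, 0, 1, 1 and 4, only the groups compared 1, 0, 0, 0, 0, 0, 2, 1 and 3, and no reference block 2, 0, 0, 0, 5, 1, 2, 1 and 4. As deposited, the 2 calls between Stat6 genotypes and the 2 against PBS in Stat6+/- perfusate were all higher. Without the arrays of low Y-linked signal the counts were 2 (perfusate) and 2 (lung) between Stat6 genotypes, 0 for Stat6-/- against PBS and 1 for the tissue difference. Without preparation 1.3 they were 1 for OVA, 0 for Stat6-/- and 5 for Stat6+/- against PBS, and 4 for the tissue difference. Scaling gave 1 for lung Stat6+/- against Epi+ and 3 for the tissue difference, and kept 4 lung calls between Stat6 genotypes, all higher. Genes on every array gave 8 and 9 for the lung Stat6+/- comparisons with Stat6-/- and Epi+. The replicate block, possible only in lung, gave 1 and 1 for these comparisons and 0 for the others; correlations of same-numbered arrays ran from -0.411 to 0.276, so they share only a number. Leaving out 1 array gave 2 to 7, 1 to 1, 1 to 3, 1 to 2, 6 to 14 and 2 to 12 in perfusate (0 to 0 for Stat6+/- against Epi+), 2 to 7 and 1 to 5 in lung (0 to 0 for Epi+ against Stat6-/-, 0 to 1 for OVA) and 3 to 8 for the tissue difference. No difference reversed. Of the values for called genes 537 stayed past the threshold and 327 did not; of those for named genes not called, 233 stayed and 4 passed. The cause was not tested. Signal over background was not known, and 5 arrays a group limit the precision.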
